A study of Homo sapiens with 3 samples.

Results

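Non-targeting control sgRNAs are single guide RNAs (sgRNAs) whose spacer has no binding site in the human genome, so a cell that carries one expresses Cas9 and a guide but receives no programmed DNA cut. They were found here as the sgRNAs whose name carries "none" where other names hold an Ensembl gene identifier. The 3 libraries listed 4639 of them among 200682 sgRNAs, or 2.31%. The yardstick of cutting without loss of a gene was the set of 6645 safe-targeting sgRNAs, which direct Cas9 to genomic locations with no annotated function. The remaining 189398 sgRNAs targeted 20381 genes.

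The counts came from a pooled CRISPR knockout screen in K562, an established human leukaemia line with little MHC class I on its surface. All groups shared the same background: K562 cells given Cas9 with a lentivirus and selected with blasticidin, then given the genome-wide Bassik lentiviral guides at a low dose of virus (a multiplicity of 0.3) and treated with puromycin (1 μg/mL, 72 h, starting 48 h after infection). HLA-B high sorted cells were given 1 ng/mL interferon-γ (IFN-γ), an inducer of MHC class I, 24 h before each sort and were collected by an HLA-B antibody on days 18 and 25. The unsorted pool grown alongside is called the high-screen pool, and the low-screen pool is the unsorted pool of a screen sorted on days 7 and 15 after 25 ng/mL IFN-γ. The labels give no harvest day for the unsorted pools, and the title and the deposited name of the low-screen pool differ on the antibody used in its screen. Each group held 1 library, so no spread between libraries could be measured, and the intervals below are 95% intervals over the sgRNAs within these libraries.

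Cas9 makes a double-strand break where its guide pairs with DNA beside a short motif, the PAM. Repair of the break often leaves small deletions or insertions, which is how a gene is lost, but the break itself also activates the DNA damage response, and cells with many copies of the cut site divide more slowly. In K562, which lacks functional p53, the arrest that p53 imposes after a break is missing. A non-targeting guide therefore differs from a gene-targeting guide in 2 ways, the cut and the lost gene, and by design a safe-targeting guide differs from it in the cut alone. How far these controls differ in abundance, in drop-out and in the sort is the question addressed here.

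For a picture of what a cutting control recognises, the 3 safe-targeting spacers that the study used in its later single-guide experiments were matched to GRCh37. Each had exactly 1 perfect site followed by an NGG PAM. The spacer is in lower case and the PAM of the genomic site in capitals, 5′ to 3′.

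Control sgRNA 1: aatcataaggcaatcatcTGG

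Control sgRNA 2: agtaaactagcgcattgTGG

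Control sgRNA 3: aacggatgttaggttctGGG

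Control sgRNA 1 (18 bases) matched the plus strand at chr1:206192147-206192164, within a long non-coding RNA gene (ENSG00000287432) and 31468 bp from AVPR1B, the nearest protein-coding gene. Control sgRNA 2 (17 bases) matched the plus strand at chr14:86741813-86741829, in no annotated gene and 621041 bp from FLRT2. Control sgRNA 3 (17 bases) matched the plus strand at chr6:102665793-102665809, in no annotated gene and 136296 bp from GRIK2. The sources used here do not pair these 3 spacers with count names, so no count is given for them. For non-targeting sgRNAs the sources used here pair names with counts only, so they are given by name.

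Depth differed between the libraries, with 34266318 matched reads after the sort, 22562241 for the unsorted high screen and 98426251 for the unsorted low screen, or a mean of 171, 112 and 490 reads per sgRNA. Levels are given per 1000000 matched reads (CPM), so that 1 read was worth 0.0292, 0.0443 and 0.0102 CPM. The sorted library listed 49.6% of all sgRNAs, against 97.7% and 93.4% in the unsorted pools. Of the non-targeting sgRNAs 2813 (60.6%) were seen in all 3 libraries, 1460 (31.5%) in both unsorted pools but not after the sort, and 178 (3.84%) in the high-screen pool alone. The first of these shares was 48.5% and the second 44.1% for safe-targeting sgRNAs.

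Non-targeting sgRNAs were more abundant than cutting controls in all 3 libraries. In the high-screen pool their median was 6.83 CPM (interval 6.56 to 6.96), with quartiles of 3.28 and 11.7 CPM. Safe-targeting sgRNAs had a median of 3.86 CPM there (interval 3.77 to 3.99) and all gene-targeting sgRNAs 3.81 CPM. The non-targeting median was thus 1.77-fold that of safe-targeting sgRNAs, and the ratio of the means was 1.78.

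The gap was smaller in the low-screen pool. The non-targeting median was 6.37 CPM (6.15 to 6.55) and the safe-targeting median 4.20 CPM (4.08 to 4.32), a ratio of 1.52. Gene-targeting sgRNAs had a median of 3.92 CPM. Together the non-targeting sgRNAs took 3.92% of matched high-screen reads, 3.59% of low-screen reads and 4.69% of sorted reads, in each case above their 2.31% share of sgRNAs. In the sorted library their median was 1.25 CPM (1.02 to 1.49), where the safe-targeting median was 0.03 CPM or 1 read, and their mean of 10.1 CPM was 2.42-fold the safe-targeting mean of 4.18 CPM.

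Olfactory receptor sgRNAs (3676 against 393 genes), which cut genes that leukaemia cells are not known to need, had medians of 2.93 CPM in the high-screen pool and 3.17 CPM in the low-screen pool. The non-targeting medians were 2.33-fold and 2.01-fold higher. For scale, 693 sgRNAs against 84 ribosomal protein genes, whose products build the ribosome and are needed for growth, had medians of 2.04 and 1.77 CPM. The non-targeting medians exceeded them 3.35-fold and 3.60-fold. The excess over cutting controls without a growth gene was therefore smaller than that over sgRNAs against growth genes.

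The counts of non-targeting sgRNAs were about as unequal as those of safe-targeting sgRNAs in the unsorted pools. The Gini index of inequality (0 for equal counts) was 0.443 and 0.440 for non-targeting sgRNAs in the high-screen and low-screen pools, and 0.432 in both for safe-targeting sgRNAs. It was higher for olfactory receptor sgRNAs (0.510 and 0.498) and ribosomal protein sgRNAs (0.521 and 0.553). In the sorted library it was 0.803 for non-targeting and 0.848 for safe-targeting sgRNAs. Reads in the high-screen pool ran from 0 through a median of 154 to 1451 for single non-targeting sgRNAs. In the low-screen pool they ran from 0 through 627 to 7333, and in the sorted library from 0 through 43 to 40267. The sorted library thus had the lowest median and the highest single count of the 3.

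The class was not uniform along its names. Every non-targeting name ends in an index, and the indices run from 1 to 6750, as they do for safe-targeting names. Cut into 9 runs of 750 indices, a division chosen after the counts were seen, runs 5, 6, 8 and 9 listed 742 to 747 of 750 names each. Runs 1 to 4 and 7 listed only 321 to 344. All 9 safe-targeting runs listed 713 to 747.

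Counts followed the same division. In the fully listed runs the median in the high-screen pool was 7.76 to 9.55 CPM, and in the sparsely listed runs 3.55 to 5.01 CPM. The safe-targeting runs lay between 2.30 and 4.48 CPM. The ranges of sparsely listed non-targeting runs and safe-targeting runs overlapped, whereas every fully listed run lay above both.

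Pooled over the sparsely listed runs, 1661 non-targeting sgRNAs of 3750 names had a median of 4.43 CPM in the high-screen pool and 4.21 CPM in the low-screen pool. For the 2978 of 3000 names in the fully listed runs these were 8.55 and 7.78 CPM. Against all safe-targeting sgRNAs, the log2 ratio of medians in the high-screen pool was 0.82 (0.75 to 0.87) for the whole class and 0.20 (0.10 to 0.30) in the sparsely listed runs. In the low-screen pool it was 0.60 (0.54 to 0.66) and 0.00 (−0.09 to 0.11). Most of the excess in abundance thus lay in 4 of the 9 runs. The abundance of each sgRNA in the plasmid library was not analysed here, so the amount put into the cells and its change during growth cannot be told apart.

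Drop-out was counted as the share of sgRNAs with no read in a pool, among those listed in any of the 3 libraries. Names listed in none of them were left out. These were 2089 in the sparsely listed and 22 in the fully listed non-targeting runs, and 105 among safe-targeting names. Of the non-targeting sgRNAs 153 (3.30%, exact interval 2.80 to 3.85%) lacked a read in the high-screen pool and 315 (6.79%, 6.08 to 7.55%) lacked one in the other. The safe-targeting shares were 2.09% (1.76 to 2.47%) and 5.36% (4.83 to 5.93%). Counted in this way, non-targeting sgRNAs were missing more often, by 1.21 percentage points (0.60 to 1.84) and 1.43 percentage points (0.54 to 2.35).

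That direction turned when presence in the other pool was required. Of 4324 non-targeting sgRNAs listed in the low-screen pool, 51 (1.18%, 0.88 to 1.55%) were missing from the high-screen pool, against 133 of 6289 safe-targeting sgRNAs (2.11%, 1.77 to 2.50%). Of 4486 non-targeting sgRNAs listed in the high-screen pool, 213 (4.75%, 4.14 to 5.41%) were missing from the low-screen pool, against 350 of 6506 (5.38%, 4.84 to 5.96%). The first difference was −0.94 percentage points (−1.41 to −0.44). The second was −0.63 points with an interval that included 0 (−1.45 to 0.21).

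With only the names listed in the sorted library alone left out, the differences were −0.88 percentage points (−1.33 to −0.41) and −0.58 points, the latter with an interval that included 0 (−1.38 to 0.25). There were 102 such non-targeting sgRNAs, 2.20% of the class, against 6 safe-targeting sgRNAs (0.09%) and 317 gene-targeting sgRNAs (0.17%). Of the 102, 80 had a single read and the highest had 65 reads. All but 2 of them, 100 names, belonged to the sparsely listed runs. Whether they were ever present in the cells was not tested.

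In the fully listed runs non-targeting drop-out was below that of safe-targeting sgRNAs without any such condition. It was 0.64% in the high-screen pool and 1.85% in the low-screen pool, against 8.07% and 15.7% in the sparsely listed runs. The fully listed runs were set apart by how many names these same libraries listed, so low drop-out was partly built in. They also had more high-screen reads, a median of 193 against 87 for safe-targeting sgRNAs. The shares of the sparsely listed runs include their 100 names listed in the sorted library alone. Given a read in the other pool, 2.43% and 10.5% were missing in the sparsely listed runs. The fully listed runs then had 0.58% and 1.79%. Among ribosomal protein sgRNAs 6.78% and 17.6% were missing, and among 367 proteasome sgRNAs (40 genes of the protein-degrading complex) 3.54% and 17.4%. Olfactory receptor sgRNAs were missing at 3.54% and 9.52%, and for the second of these the non-targeting share differed by −2.73 percentage points (−3.94 to −1.55).

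In the sort, more non-targeting than safe-targeting sgRNAs were retained. Of the non-targeting sgRNAs, 4325 had 10 or more high-screen reads and entered this comparison, and 2825 of them (65.3%, 63.9 to 66.7%) had a read after the sort. Of 6257 safe-targeting sgRNAs 52.4% (51.2 to 53.7%) had one, a difference of 12.9 percentage points (11.0 to 14.8). Retention was 51.5% for gene-targeting, 46.6% for olfactory receptor, 32.2% for ribosomal protein and 33.0% for proteasome sgRNAs. The non-targeting share was the highest of these 6. The difference was larger at a stricter count, since 44.9% of non-targeting and 26.5% of safe-targeting sgRNAs had at least 100 sorted reads. That count was not matched on high-screen reads, of which non-targeting sgRNAs had more (class medians of 154 and 87).

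Retention rose with the number of reads in the high-screen pool (control reads), and most of the difference fell away at matched reads. Among sgRNAs with 10 to 24 control reads, 27.7% of non-targeting and 30.2% of safe-targeting sgRNAs were retained. With 50 to 99 reads these were 46.7% and 47.0%, and with 100 to 199 reads 62.9% and 60.3%. At 200 to 399 reads retention was 80.1% and 75.0%, the only 1 of 6 bins in which the interval of the difference (5.05 points, 1.36 to 8.83) left out 0. At 400 or more reads 91.1% and 89.9% were retained. Averaged over the bins with the weights of the non-targeting sgRNAs, the difference was 2.44 percentage points.

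The runs of names differed in the same direction as their abundance. Retention was 66.6 to 71.3% in the 4 fully listed runs and 52.7 to 60.0% in the 5 sparsely listed ones, and 41.8 to 58.7% in the safe-targeting runs. Pooled, 69.6% and 56.4% of non-targeting sgRNAs were retained. The sparsely listed runs exceeded safe-targeting sgRNAs by 3.97 percentage points (1.08 to 6.84).

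The log2 ratio of the sorted library over the high-screen pool, scaled to matched reads with a pseudocount of 1 read, gave the size of the change per sgRNA. Its median was −2.20 (−2.38 to −1.97) for non-targeting sgRNAs and −4.25 (−4.39 to −4.09) for safe-targeting sgRNAs, a difference of 2.05 (1.81 to 2.32). The ratio of an sgRNA with no sorted read is set by the pseudocount and by its control reads, and with a pseudocount of 5 the medians were −1.94 and −2.68, a difference of 0.74. Among retained sgRNAs alone the medians were −0.45 and −0.72. Matched on control reads, the difference of medians was 0.65. Without matching, the sparsely listed runs differed from all safe-targeting sgRNAs by 0.42 (0.00018 to 0.87).

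Of the non-targeting sgRNAs, 683 (15.8%, 14.7 to 16.9%) lay above a log2 ratio of 1, against 12.6% of all 184826 sgRNAs tested and 11.7% (10.9 to 12.6%) of safe-targeting sgRNAs. Below −1 lay 2612 of them (60.4%, 58.9 to 61.9%), against 70.6% of all sgRNAs and 71.5% of safe-targeting sgRNAs. The share above 1 was thus higher than the safe-targeting share by 4.06 percentage points (2.72 to 5.42), and the share below −1 lower by 11.1 points.

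At matched control reads the share above 1 also stood higher than that of safe-targeting sgRNAs. It was 15.2 to 16.4% for non-targeting sgRNAs in the 6 bins and 9.43 to 13.8% for safe-targeting sgRNAs, higher for non-targeting in each bin. The difference averaged over bins was 4.70 percentage points. Its interval left out 0 in 3 bins, those of 25 to 49 reads (4.49 points), 100 to 199 reads (5.06 points) and 200 to 399 reads (6.10 points). In the sparsely listed runs 14.3% (12.5 to 16.2%) lay above 1 and in the fully listed runs 16.5% (15.2 to 17.9%).

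With the low-screen pool as denominator the contrasts had the same direction. Of 4301 non-targeting sgRNAs with at least 10 reads there, 65.4% were retained, 18.4% lay above 1 and 59.3% lay below −1. For safe-targeting sgRNAs these shares were 51.6%, 12.2% and 72.9%. The medians were −2.11 and −6.14, a difference of 4.03 (3.77 to 4.27). A ratio without a sorted read is again set by the pseudocount and the control reads, and this pool was the deepest library. Among retained sgRNAs alone the medians were −0.32 and −0.84.

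The upper tail of the non-targeting sgRNAs measured how far an sgRNA moved in this sort with no cut at all. Their 90th percentile lay at a log2 ratio of 1.66, the 95th at 2.51 and the 99th at 3.92. Above these points lay 8.17%, 4.07% and 0.96% of 174244 gene-targeting sgRNAs. Safe-targeting sgRNAs passed them at 7.64%, 3.74% and 0.88%. At each point the gene-targeting and safe-targeting shares were below that of non-targeting sgRNAs. The choice of percentile fixes the non-targeting share only. No interval was computed for these shares. The highest non-targeting ratio, 6.96, belonged to 1 sgRNA. Above it lay 29 gene-targeting sgRNAs, or 0.0166%, and 0.0160% of safe-targeting sgRNAs.

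The most abundant non-targeting sgRNAs in the sorted library show how single guides made up this tail. They are given by the number that follows none_none_204550 in their name. Non-targeting sgRNA 6663 had 40267 sorted reads, 212 high-screen reads and 125 low-screen reads. Its level rose from 9.40 to 1175 CPM between the high-screen pool and the sort, a log2 ratio of 6.96, and it alone held 2.51% of all non-targeting reads in the sorted library. Its high-screen reads lay between the quartiles of the class (74 and 264), and its low-screen reads below the lower quartile (305).

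Non-targeting sgRNA 617 had 12647 sorted reads, 201 in the high-screen pool and 579 in the low-screen pool (log2 ratio 5.37 over the high-screen pool). Non-targeting sgRNA 2059 had 11307, 594 and 617 reads (3.65), and 3620 had 10665, 244 and 809 reads (4.84). These 3 were in different runs of names.

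The next 6 by sorted reads were 5420, 5369, 5447, 2348, 5821 and 3910. Non-targeting sgRNA 5420 had 9695 sorted reads over 503 in the high-screen pool, 5369 had 9573 over 227 and 5447 had 9305 over 245. Non-targeting sgRNA 2348 had 9205 sorted reads over 326, 5821 had 7922 over 626 and 3910 had 7904 over 386. All 10 had a log2 ratio above 3 over the high-screen pool, from 3.06 (sgRNA 5821) to 6.96. They were chosen by their sorted reads, which also enter this ratio. The 10 came from runs 1, 3, 4, 5, 6, 8 and 9, and together held 7.99% of the non-targeting reads in the sort. For the 10 most abundant safe-targeting sgRNAs this share was 6.19%.

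The guides that were most abundant before the sort were others. The 5 with the most reads in the high-screen pool were 3998, 5566, 5630, 3976 and 5558. Non-targeting sgRNA 3998 led both unsorted pools, with 1451 and 7333 reads, and had 3605 in the sorted library (log2 ratio 0.71). Non-targeting sgRNA 5566 had 1273, 4418 and 2640 reads in the same order, and 5630 had 1167, 3231 and 1777. Non-targeting sgRNA 3976, with 1041 and 2667 reads, fell to 342 in the sort (log2 ratio −2.20), and 5558, with 1025 and 4785, had 1084 (−0.52).

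In the low-screen pool the leaders were 3998, 3660, 3450, 5414 and 5558. Non-targeting sgRNA 3660 had 6398 reads there, 611 in the high-screen pool and 91 in the sort (log2 ratio −3.33). Non-targeting sgRNA 3450 had 4947, 851 and 2868 reads in that order, and 5414 had 4799, 690 and 382. Of the 8 guides that led either unsorted pool, none was among the 10 with the most sorted reads, and all 8 came from fully listed runs.

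Non-targeting sgRNAs were over-represented among the most abundant sgRNAs of every library relative to their 2.31% share. They made up 7 of the top 100 and 65 of the top 1000 sgRNAs by sorted reads, where safe-targeting sgRNAs, 3.31% of all, made up 1 and 20. In the high-screen pool they were 148 of the top 1000 and in the low-screen pool 121, against 18 and 25 safe-targeting sgRNAs. Among the top 1000 their share was thus lower after the sort (6.5%) than in the unsorted pools (14.8% and 12.1%).

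Between the unsorted pools the same non-targeting guides tended to be abundant. Over 4273 non-targeting sgRNAs listed in both, log2 CPM correlated with Pearson's r of 0.60 and Spearman's rho of 0.64, and for 6156 safe-targeting sgRNAs with 0.45 and 0.49. These are descriptions across sgRNAs that share a plasmid library and its starting abundances. The non-targeting class also joined sparsely and fully listed runs that differed in median abundance in both pools. No correlation was computed within runs. Sorted counts followed the high-screen pool less closely, with r of 0.31 over 2848 non-targeting sgRNAs.

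The level of non-targeting sgRNAs in the high-screen relative to the low-screen pool differed from that of safe-targeting sgRNAs. Their median log2 ratio was 0.12 (0.08 to 0.15, n = 4406), and that of safe-targeting sgRNAs −0.16 (−0.19 to −0.11, n = 6567), a difference of 0.27 (0.21 to 0.32). The median was above 0 in 9 of 9 non-targeting runs, from 0.03 to 0.18, and below 0 in 9 of 9 safe-targeting runs, from −0.26 to −0.05. In the sparsely listed runs alone the difference was 0.25 (0.17 to 0.34).

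Single guides scattered widely around these medians. Of the non-targeting sgRNAs 855 (19.4%) lay above a log2 ratio of 1 between the pools, against 22.2% of all 195688 sgRNAs tested, and 640 (14.5%) lay below −1, against 23.4% of all. Safe-targeting sgRNAs lay above 1 at 18.7% and below −1 at 25.0%. The control classes thus lay further apart in the lower tail than in the upper. Gene-targeting sgRNAs had a median of −0.03, olfactory receptor sgRNAs of 0.00 and ribosomal protein sgRNAs of 0.05. The median was 0.17 (−0.13 to 0.46) for proteasome sgRNAs. It was 0.25 (−0.18 to 0.64) for sgRNAs against genes in or near a region amplified in K562, described below. Both lay above the non-targeting median, with intervals that held it and negative values too. Whether a raised ratio was particular to non-targeting sgRNAs was therefore not settled. The pools belonged to screens with different sort days and IFN-γ doses, so time, dose and library cannot be told apart in this ratio.

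Guides that should find no site in K562 offered another comparison without an intended cut. K562 lacks a stretch of 9p21 around CDKN2A and carries no Y chromosome, so sgRNAs against genes there have no intended target. The 159 sgRNAs against 19 genes of 9p21 had a median of 4.34 CPM in the high-screen pool (3.06 to 5.63). In the low-screen pool it was 4.84 CPM (4.26 to 5.95). The non-targeting medians were 1.57-fold and 1.32-fold these. The high-screen interval held the safe-targeting median of 3.86 CPM, and the low-screen interval left out that of 4.20 CPM. In the sort 63.4% of 134 were retained (54.7 to 71.6%) and 18.7% lay above 1 (12.5 to 26.3%), with a median log2 ratio of −2.20 (−3.81 to −1.12). These 3 intervals left out the safe-targeting values of 52.4%, 11.7% and −4.25. The comparison was not matched on control reads, with class medians of 98 for 9p21 and 87 for safe-targeting sgRNAs. The non-targeting values differed from the 9p21 values by 1.89 percentage points (−5.92 to 10.4), −2.86 points (−10.4 to 2.93) and −0.01 (−1.10 to 1.62).

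The 151 sgRNAs against 20 Y-linked genes had medians of 4.79 CPM (3.81 to 5.50) and 4.67 CPM (3.80 to 5.93) in the unsorted pools, and the non-targeting medians were 1.43-fold and 1.36-fold these. Of 135 tested in the sort 58.5% were retained (49.7 to 66.9%) and 11.1% lay above 1 (6.35 to 17.7%). The non-targeting retention exceeded theirs by 6.80 points, with an interval from −1.29 to 15.3. The intervals of both Y-linked shares held the safe-targeting value too. Several of the genes have close relatives elsewhere (other interferon genes, and X-linked relatives of Y genes), so the absence of a cut is uncertain for their guides.

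Between the pools the 9p21 guides lay lower than the non-targeting sgRNAs. Their median log2 ratio of high-screen over low-screen pool was −0.22 (−0.45 to 0.03), lower than the non-targeting median by 0.34 (0.09 to 0.57). The Y-linked guides lay at −0.01 (−0.21 to 0.11), and the difference from non-targeting sgRNAs, 0.13, had an interval that included 0 (−0.0011 to 0.33). The intervals of the 9p21 and Y-linked medians both held the safe-targeting median, −0.16.

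At the other extreme stood guides against genes in or near a region with many copies. K562 carries an amplified stretch of DNA around the BCR and ABL1 fusion, and 190 sgRNAs targeted 20 genes listed as in or near it. Copy number was not measured here, so the number of sites cut by each guide is not known. Their medians were 2.11 CPM in the high-screen pool and 1.70 CPM in the low-screen pool, and the non-targeting medians were 3.24-fold and 3.74-fold higher. Of them 5.79% and 19.5% were missing from the 2 pools. In the sort 37.7% of 159 were retained (30.2 to 45.8%) and 6.92% lay above 1 (3.50 to 12.0%), against 65.3% and 15.8% of non-targeting sgRNAs. The list includes genes that these leukaemia cells need, so the number of cuts and the loss of the gene cannot be told apart in this set.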

How the data were processed

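The files hold whole-number read counts for each sgRNA in 3 libraries, deposited as raw values. For these the authors trimmed reads with fastx clipper or cutadapt, mapped them with Bowtie2 to the sgRNA sequences, removed reads that aligned to several and counted the rest. The submitters' notes name bcl2fastq, cutadapt and Bowtie2, with versions not given in the sources used here. An sgRNA not listed in a library was given a count of 0. Unmatched reads (21.9%, 20.6% and 12.1% in the order sorted, high screen, low screen) were left out. Counts are PCR reads without molecular identifiers, so intervals cover counting over sgRNAs only.

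Counts were scaled to matched reads with Python 3.11.15 (scipy 1.17.1, pandas 2.3.3, numpy 2.4.6). Log2 ratios used a pseudocount of 1 and took sgRNAs with 10 or more reads in the high-screen pool (in either pool for the ratio between pools). Shares have exact Clopper-Pearson intervals, differences of shares Newcombe intervals and medians order-statistic intervals, combined by the same root-sum-of-squares rule for differences. With 1 library per group no test was made. Functions were tested on simulated data. The 10 sgRNAs with the most sorted reads and the 5 with the most reads in each pool were named. Members, comparison classes and lists were chosen with earlier results of these data known. Spacers were located in GRCh37 with GENCODE annotation.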

Additional observations from a re-analysis of the deposited data

How the results depend on the processing

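Of 64 alternative values over 9 comparisons of non-targeting with safe-targeting sgRNAs, 58 kept the direction, 38 stayed within the interval of the reported value, 20 moved beyond it and 6 turned it. Alternatives on name runs, on pseudocounts added before scaling and on sgRNAs seen in either pool were chosen after seeing the data.

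The drop-out comparison turned. The difference in the high-screen pool, 1.21 percentage points, was −0.94 among sgRNAs seen in the other pool, −0.88 among those seen in either pool and −1.45 with the fully listed runs only, and 0.10 when drop-out meant under 0.1 of the mean count. In the low-screen pool, 1.43 points became −0.63, −0.58 and −3.51 under the first 3 of these, and the intervals of the first 2 included 0. The fully listed runs were set apart by listing in these same libraries, so their values give no separate support.

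In the sort, the retention difference of 12.9 points was 9.38 with at least 100 control reads, 2.44 within bins of control reads, 18.4 when at least 100 sorted reads were required and 3.97 in the sparsely listed runs. The difference of median log2 ratios, 2.05, varied with the pseudocount, with 2.74 at 0.5, 0.74 at 5 and 2.48 when added before scaling. It was 1.32 with at least 100 control reads, 4.03 over the low-screen pool, 0.65 within bins and 0.42 in the sparsely listed runs. The difference in the share above 1, 4.06 points, was 6.23 over the low-screen pool and 2.57 in the sparsely listed runs. The difference below −1, −11.1 points, was −13.7 over the low-screen pool, −8.50 within bins and −5.41 in the sparsely listed runs.

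Abundance differences (log2 ratio of medians) of 0.82 and 0.60 fell to 0.20 and 0.0035 in the sparsely listed runs. Between the pools, 0.27 became 0.33 with at least 100 reads. Averages within sublibraries were not run, since the names carry no sublibrary code. No paired analysis was possible because each group held 1 library. The high-screen pool was the shallowest library (1 read is worth 0.0443 CPM), and thinning the sort to its depth gave a retention difference of 13.2 points.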
